A study of Arabidopsis thaliana with 24 samples.

Results

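The comparison described here asks whether the difference between 2 untreated brassinosteroid mutants of Arabidopsis was the same at 7 and at 24 days of age. It is the genotype-by-age interaction: the difference between the receptor triple mutant and cpd at 24 days, minus the same difference at 7 days, on a log2 scale. It uses the 12 of 24 libraries made without brassinolide (BL), in 4 groups of 3 libraries: 7-day cpd, 7-day triple mutant, 24-day cpd and 24-day triple mutant. The other 12 libraries are the BL-treated counterparts. The series' design text names the triple mutant bri1-701 brl1 brl3, and the sample labels spell its first allele brl1-701. The tissue is given as seedling in all groups. RNA was extracted with Trizol and made into libraries with an Illumina TruSeq kit, and the deposited values are read counts per gene.

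Brassinosteroids are steroid hormones that plants make from sterols and that bind a receptor kinase at the cell surface, BRI1 or its relatives BRL1 and BRL3. BRI1 pairs with the co-receptor BAK1, the kinase BIN2 is switched off, and the transcription factors BZR1 and BES1 then promote cell elongation and hold down the genes of hormone synthesis. CPD is a cytochrome P450 of that synthesis, so cpd plants lack hormone but keep their receptors, whereas the triple mutant makes hormone that it cannot perceive through BRI1, BRL1 or BRL3. Both mutants are dwarfs, and each carries its own loss throughout life, so no group in the comparison has an intact pathway.

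Library totals were 10206408 to 12397483 counts at 7 days and 17243503 to 20563151 at 24 days, so that 3 counts corresponded to 0.242 to 0.294 CPM (read counts scaled to library size) and 0.146 to 0.174 CPM. The libraries of the 2 ages carry differently styled names, so that age and library series cannot be told apart; a shift shared by both genotypes at one age cancels in the interaction, and one in the libraries of a single group would not. The replicates differed far more at 24 days, with a biological coefficient of variation of 16.5% against 1.88% at 7 days, where replicates differed by little more than counting noise. The labels do not say that replicates are separate pools of plants, so the spread that enters a p-value is that among libraries and may be technical. The seedling label was set against tissue markers: summed CPM of 37 nuclear photosynthesis genes lay between 13800 and 18500, of 10 flower organ markers between 15.7 and 23.1, and of 10 pollen markers between 0.449 and 1.67. The 28 root markers summed to 163 to 174 CPM at 7 days, with no difference in range between the genotypes. At 24 days they summed to 199, 201 and 393 CPM in cpd and to 280, 295 and 394 CPM in the triple mutant, so replicate 3 held the highest root marker level of both groups. The part of root tissue in the results was not tested. In these bulk samples fewer cells of a type and less RNA per cell cannot be told apart.

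The mutated genes were examined first. CPD mRNA was 68.7, 63.7 and 70.6 CPM in 7-day cpd and 435, 426 and 432 CPM in the 7-day triple mutant, and 117, 108 and 107 CPM in 24-day cpd against 391, 322 and 405 CPM in the 24-day triple mutant. Every cpd library was below every triple mutant library, and the gap was narrower at 24 days. The genotype difference on the log2 scale was 2.67 at 7 days and 1.75 at 24 days, an interaction of -0.92 ± 0.12 (log2, standard error; edgeR quasi-likelihood test, adjusted p = 0.000787). BRI1 was 162, 167 and 173 CPM in cpd and 46.5, 49.7 and 47.6 CPM in the triple mutant at 7 days. By 24 days BRI1 was 273, 250 and 274 CPM in cpd and 67.5, 59.2 and 65.1 CPM in the triple mutant. Its interaction of -0.25 ± 0.09 did not pass the test (edgeR adjusted p = 0.0953). BRL3 was 37.8, 35.4 and 42.3 CPM in 7-day cpd and 3.00, 2.4 and 2.91 CPM in the 7-day triple mutant, and 26.1, 20.6 and 23.4 CPM against 5.34, 3.78 and 3.39 CPM at 24 days. The BRL3 deficit of the triple mutant was thus smaller at the later age, with an interaction of 1.30 ± 0.24 (edgeR adjusted p = 0.00684). BRL1, at 7.81 to 8.65 CPM in 7-day cpd and 2.05 to 3.14 CPM in the 7-day triple mutant, gave 0.47 ± 0.22 (edgeR adjusted p = 0.19). ABI4, a transcription factor of abscisic acid signalling, had 0 counts in all 12 untreated libraries.

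Across the 19610 genes with enough counts to test, the genotype difference moved upward from 7 to 24 days for 1147 genes (5.85% of those tested) and downward for 816 genes (4.16%) at an adjusted p below 0.05 in edgeR's quasi-likelihood test. With a spread estimated for each gene and age the counts were 1117 (5.7%) and 834 (4.25%), and in limma voom with a weight per age 1310 (6.68%) and 1019 (5.2%). In simulated data that voom fit made a larger share of false calls than edgeR. In the 12 BL-treated libraries the same interaction was upward for 580 genes (2.96%) and downward for 623 (3.18%). Without BL the shift was at least 2-fold for 461 of the 1147 (2.35% of those tested) and for 82 of the 816 (0.418%), while the median interaction over all genes tested was -0.02 on the log2 scale. Most genes with an upward shift crossed over in their means. Of the 1147, 1050 had a lower mean in the triple mutant at 7 days and a higher one at 24 days. Over the 1147 genes the median difference was -0.38 at 7 days and 0.40 at 24 days. In 570 of them the libraries of the 2 genotypes did not overlap at either age, against 3.58% of all genes tested with that crossing. Among the 816 genes with a downward shift, 778 were higher in the triple mutant at 7 days and lower at 24 days, with medians of 0.23 and -0.27, and 439 crossed without overlap, against 3.31% of all genes. In the tests of each age alone, 965 of the 1147 were called lower at 7 days and 9 were called higher at 24 days. Of the 816, 595 were called higher at 7 days and 0 were called lower at 24 days. For most single genes the 24-day side of the crossing was thus not established. Since the same libraries enter the interaction, all of these counts describe its shape and are no second test of it.

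Each age taken alone gave very different numbers of calls. At 7 days 2479 genes were higher (12.6%) and 2752 lower (14%) in the triple mutant than in cpd. At 24 days 17 genes were higher (0.0867%) and 3 lower (0.0153%) in edgeR, although 3204 genes (16.3%) had an unadjusted p below 0.05 and DESeq2 called 546 higher and 145 lower. With replicate number as a block, used because same-numbered 24-day libraries had correlated deviations, edgeR called 156 higher and 11 lower at 24 days. The median absolute log2 difference between the genotypes was 0.158 at 24 days and 0.136 at 7 days, with median standard errors of 0.137 and 0.0869. A larger error raises a median absolute value, so these values do not show at which age the genotypes differed more. Over the 19610 genes the genotype differences at the 2 ages, which share no library, had a Pearson correlation of -0.037 and a Spearman correlation of -0.14, given as a description across genes that are not independent replicates. The interaction fit gave each gene a single spread for both ages, although the replicates differed far more at 24 days. Its counts changed when a library was left out. Without any 1 of the 6 libraries at 7 days, 621 to 656 genes shifted upward and 321 to 353 downward. The fall was thus much the same whichever 7-day library was left out, and its cause was not tested. Downward counts were 452 without 24-day cpd replicate 1, 465 without replicate 2 and 1361 without replicate 3, and without 24-day triple mutant replicate 3 the counts were 1953 upward and 1513 downward. Of the 3 libraries of the 24-day triple mutant, replicate 2 held the highest value for 743 of the 1147 upward genes (64.8%), for 16.3% of the downward genes and for 37.5% of all genes tested.

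**Figure D1:**
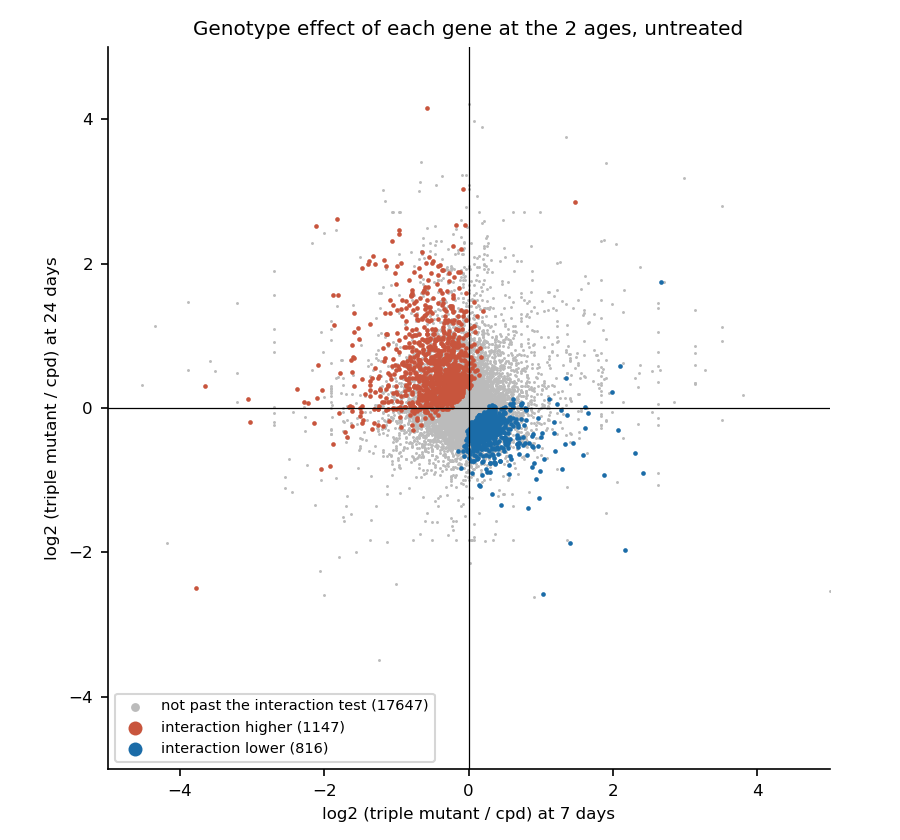
Each point is 1 of the genes tested; the horizontal axis is the log2 ratio of triple mutant to cpd at 7 days and the vertical axis the same ratio at 24 days, both without BL. The 1147 genes with an upward interaction (red) lie mostly at the upper left and the 816 with a downward one (blue) mostly at the lower right; 4 genes fall outside the axes of ±5.

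The 12 genes with the highest interaction were picked among those past both edgeR and voom with a symbol. A mean of at least 5 CPM in a group and no overlap of the genotypes at 1 age or more were also required. Genes of lower level, such as CBF1 (3.43), thus fell outside the 12. The 12 had lower means in the triple mutant than in cpd at 7 days and higher means at 24 days. CBF2, a transcription factor that switches on cold-responsive genes, was 4.98, 4.47 and 2.73 CPM in cpd and 1.08, 0.647 and 1.71 CPM in the triple mutant at 7 days. By 24 days CBF2 was 0.361, 1.91 and 0.62 CPM in cpd and 5.63, 10.5 and 2.15 CPM in the triple mutant. The genotypes did not overlap at either age and their order was opposite. The interaction was 4.43 ± 0.91 (edgeR adjusted p = 0.0125). MAF5, a MADS-box gene of the FLC clade of flowering repressors, followed another course. It was 15.7, 16.9 and 17.1 CPM in 7-day cpd and 1.08, 1.76 and 1.11 CPM in the 7-day triple mutant, and 0.31 to 0.62 CPM in 24-day cpd and 0.515 to 0.696 CPM in the 24-day triple mutant. It was therefore high in a single group, 7-day cpd, and its interaction was 3.97 ± 0.37 (edgeR adjusted p = 0.000142).

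DIC2 and BCS1 encode mitochondrial proteins, and NUDT21 and NUDT4 nudix hydrolases. DIC2, a mitochondrial dicarboxylate carrier, was 73.2, 83.4 and 82.0 CPM in cpd and 33.1, 37.1 and 35.9 CPM in the triple mutant at 7 days. By 24 days DIC2 was 35.7, 69.4 and 29.4 CPM in cpd and 206, 219 and 131 CPM in the triple mutant. All 3 libraries of the 24-day triple mutant exceeded every other library, and the interaction was 3.21 ± 0.39 (edgeR adjusted p = 0.000699). BCS1, a mitochondrial outer membrane protein also known as OM66, was 38.4 to 40.2 CPM in cpd and 22.3 to 24.2 CPM in the triple mutant at 7 days. By 24 days BCS1 was 25.6, 50.2 and 32.4 CPM in cpd and 130, 207 and 62.2 CPM in the triple mutant (interaction 2.63 ± 0.50, edgeR adjusted p = 0.00829). The nudix hydrolase gene NUDT21 was 48.7, 50.3 and 47.6 CPM in cpd and 30.8, 28.6 and 32.0 CPM in the triple mutant at 7 days. By 24 days NUDT21 was 39.3, 46.6 and 39.1 CPM in cpd and 174, 179 and 127 CPM in the triple mutant. It had the smallest adjusted p of the 12, with an interaction of 2.62 ± 0.17 (edgeR adjusted p = 1.22e-05), and it alone of the 12 was also called at 24 days (edgeR adjusted p = 0.00899). NUDT4, of the same enzyme family, gave 2.89 ± 0.34 (edgeR adjusted p = 0.000547), with 126 to 267 CPM in the 24-day triple mutant against 40.2 to 69.6 CPM in 24-day cpd.

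The remaining genes of the 12 included 2 transcription factors. ERF11, an ethylene response factor of the repressor type, was 21.2 to 23.8 CPM in cpd and 10.7 to 12 CPM in the triple mutant at 7 days. By 24 days ERF11 was 13.9, 23.8 and 15.2 CPM in cpd and 69.1, 103 and 35.6 CPM in the triple mutant (interaction 2.96 ± 0.46, edgeR adjusted p = 0.00288). MYB15, a MYB factor that activates lignin and defence genes, was 251, 242 and 252 CPM in cpd and 107, 112 and 114 CPM in the triple mutant at 7 days. By 24 days MYB15 was 78.9, 95.4 and 85.2 CPM in cpd and 181, 309 and 158 CPM in the triple mutant. Its interaction was 2.48 ± 0.27 (edgeR adjusted p = 0.000353), with the ranges apart at both ages. The F-box gene PP2-B14 (3.41 ± 0.40) and the lectin gene JAL23 (3.38 ± 0.54) followed the same course, with edgeR adjusted p of 0.000588 and 0.00364. PEPR2, a receptor for the wound peptide Pep1, and RAS1, a gene of salt and abscisic acid response, differed little at 7 days, with log2 differences of -0.55 and -0.05 that did not pass the test. Their interactions were 2.65 ± 0.58 and 2.59 ± 0.73 (edgeR adjusted p = 0.0158 and 0.0432). The RAS1 call was lost without replicate 1 of the 24-day cpd or 24-day triple mutant libraries and without any 1 of the 7-day libraries, with adjusted p up to 0.129.

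**Figure D2:**
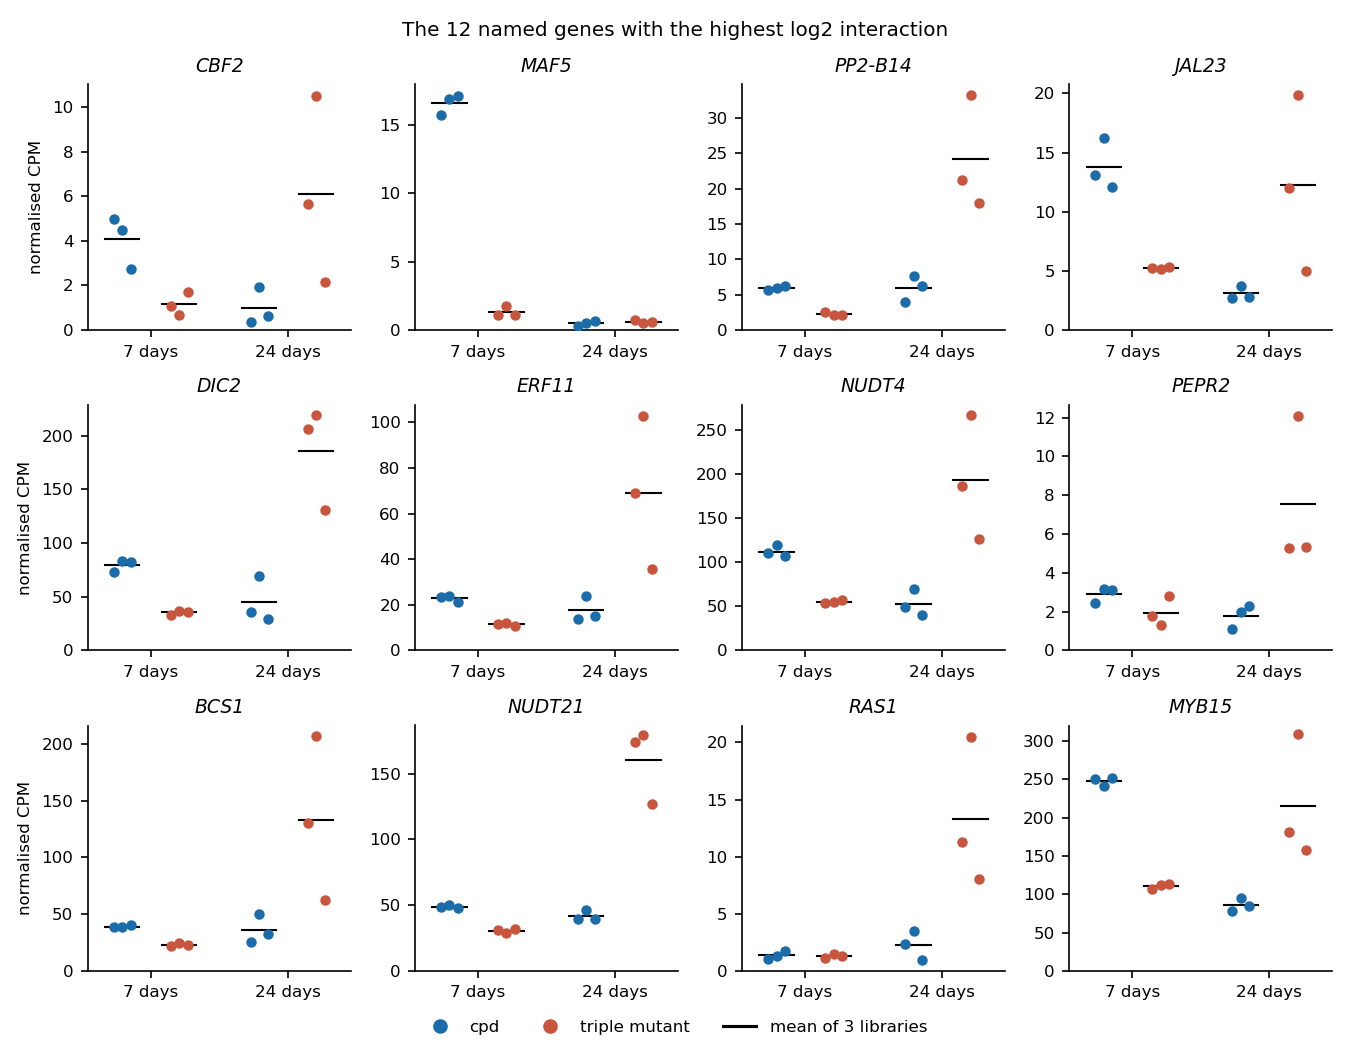
Normalised CPM (vertical axes, linear and starting at 0) of the 12 genes with the highest interaction among those with a symbol and at least 5 CPM on average in a group. Each of the 12 libraries is shown, cpd in blue and the triple mutant in red, with a line at each mean of 3 libraries. In the panel of NUDT21 the 24-day triple mutant libraries, at 127 to 179 CPM, lie above all others, and in the panel of MAF5 only the 7-day cpd libraries, at 15.7 to 17.1 CPM, stand above 2 CPM.

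The 12 genes with the lowest interaction were higher in the triple mutant at 7 days. HEI10, a factor of meiotic crossover formation, was 2.04, 2.49 and 2.93 CPM in cpd and 12.4, 9.98 and 10.6 CPM in the triple mutant at 7 days. By 24 days HEI10 was 9.76, 6.51 and 26.0 CPM in cpd and 1.91, 2.75 and 6.09 CPM in the triple mutant. The order of the genotypes was opposite at the 2 ages without overlap at either, and the interaction was -4.10 ± 0.74 (edgeR adjusted p = 0.00683). GRP9, a glycine-rich protein, was 33.0, 30.1 and 31.6 CPM in cpd and 116, 110 and 123 CPM in the triple mutant at 7 days. By 24 days GRP9 was 164, 362 and 278 CPM in cpd and 179, 98.1 and 144 CPM in the triple mutant. Its ranges were apart at 7 days and overlapped at 24 days, with an interaction of -2.81 ± 0.36 (edgeR adjusted p = 0.000862). GA20OX2, an enzyme of gibberellin synthesis, was 1.66 to 1.99 CPM in cpd and 3.16 to 3.88 CPM in the triple mutant at 7 days. By 24 days GA20OX2 was 16.4, 13.2 and 11.7 CPM in cpd and 9.05, 7.79 and 12 CPM in the triple mutant (interaction -1.48 ± 0.29, edgeR adjusted p = 0.0104).

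Several of the other genes of the 12 encode enzymes. NIT2, a nitrilase, was 140, 143 and 140 CPM in cpd and 230, 225 and 230 CPM in the triple mutant at 7 days. By 24 days NIT2 was 118, 160 and 209 CPM in cpd and 114, 73.3 and 126 CPM in the triple mutant (interaction -1.33 ± 0.28, edgeR adjusted p = 0.0132). BBX17, a B-box zinc finger factor, was 12.6 to 14.6 CPM in cpd and 20 to 21.1 CPM in the triple mutant at 7 days. By 24 days BBX17 was 86.0, 90.0 and 103 CPM in cpd and 56.3, 42.6 and 73.1 CPM in the triple mutant. It crossed over without overlap at either age, with an interaction of -1.28 ± 0.23 (edgeR adjusted p = 0.00609). DCF, which feruloylates cutin, gave -1.86 ± 0.39, and CCD8, a carotenoid cleavage dioxygenase of strigolactone synthesis, gave -1.84 ± 0.49 (edgeR adjusted p = 0.0136 and 0.0369). The methyl esterase gene MES12 gave -1.33 ± 0.23 and the plastid envelope channel gene OEP16-1 gave -1.43 ± 0.32 (edgeR adjusted p = 0.00582 and 0.0172). The major latex protein family had 3 members among the 12: MLP328 (-1.45 ± 0.19), MLP329 (-1.37 ± 0.39) and MLP34 (-1.27 ± 0.29), with edgeR adjusted p of 0.000874, 0.043 and 0.0192. MLP328 and MLP329 are neighbouring loci of similar sequence on chromosome 2, so reads could be split between them. MLP328 was 5.30, 5.97 and 5.76 CPM in 7-day cpd and 14.2, 14.8 and 14.5 CPM in the 7-day triple mutant, whereas its 24-day values of 20.3 to 22.5 CPM in the triple mutant lay within the range of cpd. The calls of CCD8 and MLP329 were lost without most of the single 7-day libraries, without 24-day cpd replicate 2 and without 24-day triple mutant replicate 1 or 2, with adjusted p up to 0.0907 and 0.111. Those of MLP34 and OEP16-1 were lost without 3 and 2 single 7-day libraries, with adjusted p up to 0.0571 and 0.0543.

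**Figure D3:**
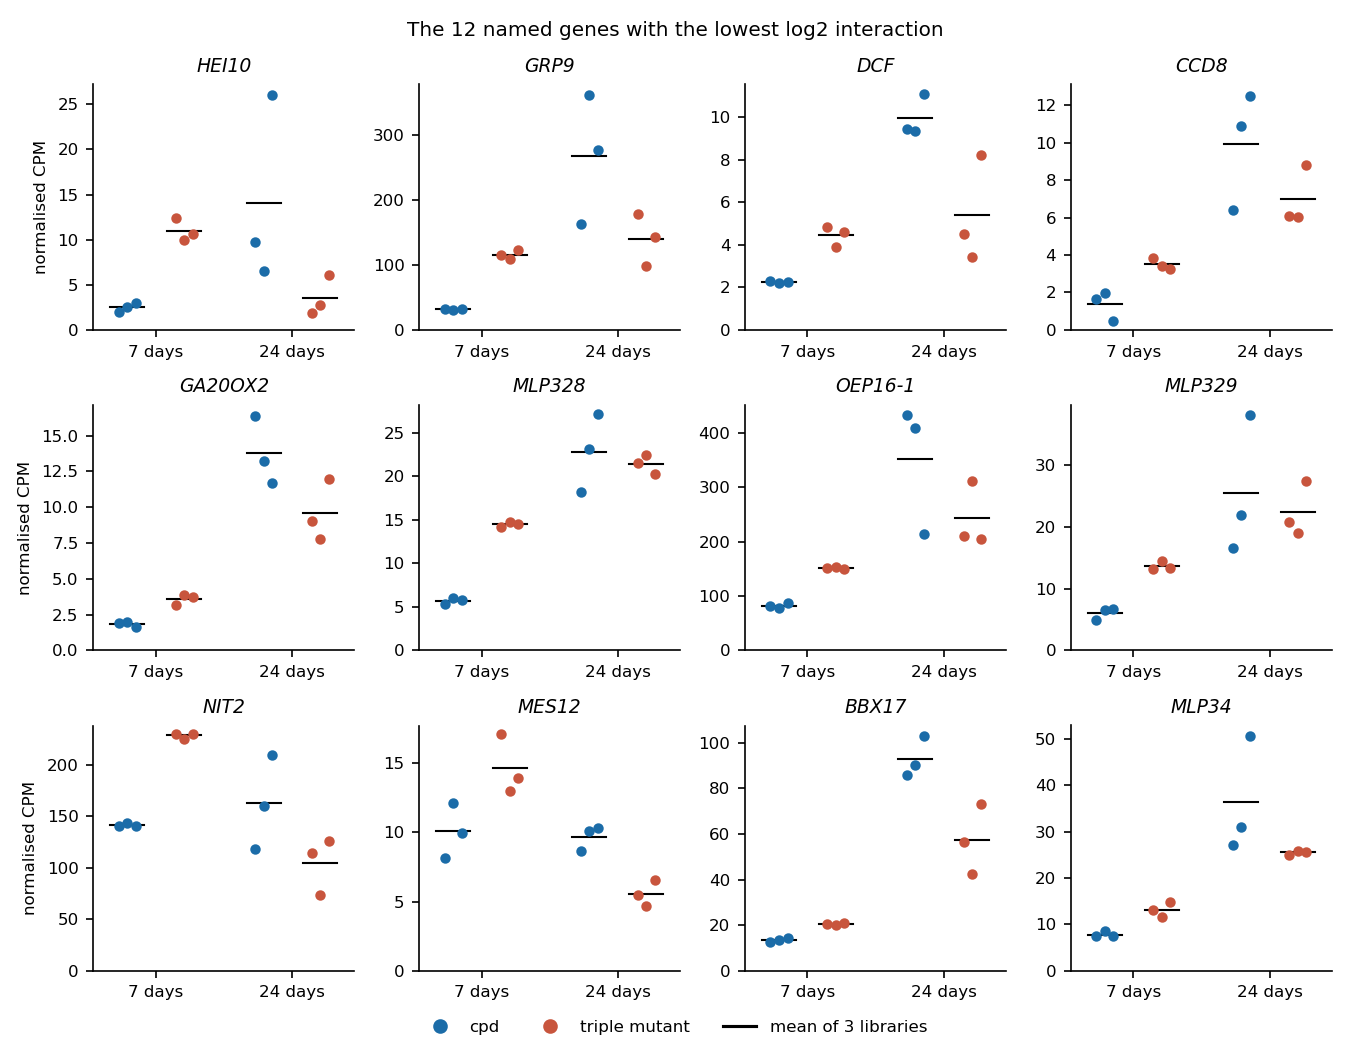
Normalised CPM (vertical axes, linear and starting at 0) of the 12 genes with the lowest interaction among those with a symbol and at least 5 CPM on average in a group. Each of the 12 libraries is shown, cpd in blue and the triple mutant in red, with a line at each mean of 3 libraries. At 7 days every triple mutant library lies above every cpd library in all 12 panels; at 24 days HEI10 and BBX17 lie lower in the triple mutant, and the ranges of GRP9 and MLP328 overlap.

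Gene lists of pathways and tissues were then described by their counts, beside the 5.85% of all genes tested with an upward and the 4.16% with a downward shift. Of all 19610 genes tested, 9254 had a positive and 10356 a negative interaction. At 7 days 14% of them were called lower and 12.6% higher in the triple mutant. Glucosinolate synthesis makes the sulfur-containing defence compounds of the cabbage family, and it held the highest share of calls: 13 of its 21 tested genes shifted upward and none downward, with a median interaction of 1.06. All 21 had a positive interaction, 17 were called lower in the triple mutant at 7 days, and the median genotype difference went from -0.61 at 7 days to 0.42 at 24 days. CYP83B1, an enzyme of the indole branch, was 545, 544 and 554 CPM in cpd and 350, 362 and 350 CPM in the triple mutant at 7 days. By 24 days CYP83B1 was 438, 446 and 481 CPM in cpd and 581, 607 and 665 CPM in the triple mutant. The ranges were apart at both ages in opposite order (interaction 1.07 ± 0.09, edgeR adjusted p = 4.54e-05). MYB51, the main activator of indole glucosinolate genes, was 226 to 230 CPM in 7-day cpd and 182 CPM in each 7-day triple mutant library, and 253, 273 and 261 CPM against 448, 441 and 376 CPM at 24 days (interaction 1.00 ± 0.09, edgeR adjusted p = 0.000131). The calls covered both branches: the indole genes CYP79B2, CYP79B3, CYP81F2 and MYB34, the aliphatic genes MAM1, BCAT4 and CYP83A1, and the late enzymes UGT74B1, SOT16, SOT17 and SOT18. The aliphatic regulators MYB28 (0.61) and MYB29 (2.53) and the P450 genes CYP79F1 (2.37) and CYP79F2 (1.96) did not pass the test. The count was 9 to 18 when any 1 library was left out and 15 with a spread estimated for each gene and age.

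Jasmonate is the hormone of wounding and insect attack, and of its 24 listed genes 10 shifted upward and none downward, with a median interaction of 1.38. All 24 had a positive interaction and 22 were called lower in the triple mutant at 7 days. JAZ1, a repressor that jasmonate itself induces, was 701, 699 and 703 CPM in cpd and 458, 451 and 453 CPM in the triple mutant at 7 days. By 24 days JAZ1 was 257, 262 and 273 CPM in cpd and 587, 914 and 414 CPM in the triple mutant (interaction 1.90 ± 0.28, edgeR adjusted p = 0.00224). AOC3, an allene oxide cyclase of jasmonate synthesis, was 125 to 130 CPM in cpd and 73.4 to 75.8 CPM in the triple mutant at 7 days. By 24 days AOC3 was 46.7, 62.1 and 61.5 CPM in cpd and 124, 311 and 96.3 CPM in the triple mutant. Both genes were lower in the triple mutant at 7 days and higher at 24 days in every library, and AOC3 gave 2.42 ± 0.46 (edgeR adjusted p = 0.00895). The other calls were the synthesis genes AOS and AOC2, the repressors JAZ3, JAZ5, JAZ7 and JAZ8, the storage protein gene VSP1 and the defensin gene PDF1.2. PDF1.2 was 2.94 to 3.81 CPM in 7-day cpd and at most 0.50 CPM in all other libraries. MYC2, the central activator of the response, had 70.1 to 126 CPM in 24-day cpd and 254, 408 and 102 CPM in the 24-day triple mutant, and its interaction of 1.7 ± 0.51 did not pass the test (edgeR adjusted p = 0.0551). Replicates 1, 2 and 3 of the 24-day triple mutant differed widely: the median of the 24 genes, as log2 CPM minus each gene's mean, was 0.27, 0.95 and -0.33, against -0.71, -0.42 and -0.59 in 24-day cpd. The count was accordingly 20 without triple mutant replicate 3, 7 without replicate 2, 4 without 24-day cpd replicate 2, 6 without 24-day cpd replicate 1 and 4 without any single 7-day library, and it was 6 with a spread for each gene and age. The median was 0.93 without triple mutant replicate 2.

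Of 21 tested genes of lignin and the secondary wall, 9 shifted upward and none downward, with a median interaction of 0.97. All 9 were enzymes of the phenylpropanoid and monolignol pathway, which turns phenylalanine into lignin precursors: PAL1, PAL2, C4H, 4CL1, 4CL2, HCT, CCOAOMT1, COMT1 and CAD5. PAL1, the entry enzyme, was 822, 849 and 823 CPM in cpd and 374, 399 and 374 CPM in the triple mutant at 7 days. By 24 days PAL1 was 150, 119 and 185 CPM in cpd and 210, 313 and 321 CPM in the triple mutant (interaction 2.01 ± 0.23, edgeR adjusted p = 0.000471). C4H was 1337, 1339 and 1353 CPM in cpd and 842, 858 and 835 CPM in the triple mutant at 7 days. By 24 days C4H was 823, 718 and 591 CPM in cpd and 965, 1138 and 1001 CPM in the triple mutant. Both crossed over without overlap at either age, and C4H gave 1.21 ± 0.14 (edgeR adjusted p = 0.000607). The secondary wall cellulose synthase genes IRX1 (0.09), IRX3 (0.48) and IRX5 (0.17) and the laccase genes LAC4 (0.29), LAC11 (1.04) and LAC17 (0.19) did not pass the test. The count was 9 or 10 when any 1 library was left out, and the median was 0.66 without 7-day cpd replicate 3.

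Salicylate is the hormone of defence against biotrophic pathogens, and 9 of its 27 listed genes shifted upward and none downward, with a median interaction of 0.89. PBS3, an enzyme of salicylate synthesis, was 25.0 ± 1.19 CPM (SD, n = 3) in cpd and 5.66, 5.45 and 5.90 CPM in the triple mutant at 7 days. By 24 days PBS3 was 18.9, 19.8 and 11.7 CPM in cpd and 15.4, 15.1 and 13.2 CPM in the triple mutant (interaction 1.93 ± 0.24, edgeR adjusted p = 0.000751). FRK1, a receptor kinase gene induced in early defence, was 162, 157 and 149 CPM in cpd and 54.6, 56.7 and 57.7 CPM in the triple mutant at 7 days. By 24 days FRK1 was 96.9, 97.0 and 96.7 CPM in cpd and 77.5, 84.8 and 89.6 CPM in the triple mutant. These 2 genes did not cross over but were much lower in the triple mutant at 7 days and close to cpd at 24 days, FRK1 with an interaction of 1.26 ± 0.09 (edgeR adjusted p = 1.59e-05). ICS1, which makes the salicylate precursor, was of the same kind, with log2 differences of -1.31 at 7 days and -0.02 at 24 days. WRKY33, a transcription factor of defence, did cross over, from 508 to 522 CPM in cpd against 432 to 445 CPM in the triple mutant at 7 days to 332, 401 and 363 CPM against 724, 851 and 516 CPM at 24 days (interaction 1.16 ± 0.19, edgeR adjusted p = 0.00441). WRKY40, WRKY53, CBP60g and SAG101 were also called, as was ALD1, which had 0 counts in all 3 libraries of the 7-day triple mutant and 0.499 to 1.22 CPM elsewhere, so that no fold is given. The pathogenesis-related genes PR1, PR2 and PR5 did not pass the test. PR1 was 25.0, 104 and 9.10 CPM in 24-day cpd and 11, 2.29 and 9.48 CPM in the 24-day triple mutant. The count was 14 without triple mutant replicate 3 at 24 days and 14 with replicate number as a block.

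The nuclear photosynthesis genes moved the other way: 15 of 37 shifted downward and none upward, with a median interaction of -0.39, and 34 of the 37 were negative. These genes encode light-harvesting proteins, photosystem subunits and carbon-fixation enzymes, and 31 of them were called higher in the triple mutant at 7 days. PSBX, a small photosystem II subunit, was 133, 133 and 143 CPM in cpd and 150, 151 and 142 CPM in the triple mutant at 7 days. By 24 days PSBX was 246, 235 and 211 CPM in cpd and 167, 163 and 156 CPM in the triple mutant (interaction -0.63 ± 0.09, edgeR adjusted p = 0.00181). PSAG, a photosystem I subunit, was 327 to 333 CPM in cpd and 387 to 428 CPM in the triple mutant at 7 days. By 24 days PSAG was 740, 697 and 592 CPM in cpd and 547, 511 and 485 CPM in the triple mutant (interaction -0.68 ± 0.12, edgeR adjusted p = 0.00482). LHCB6, a light-harvesting protein, was 317 to 322 CPM against 358 to 377 CPM at 7 days and 153, 175 and 162 CPM against 140, 137 and 126 CPM at 24 days (interaction -0.49 ± 0.09, edgeR adjusted p = 0.00591). The shifts were small and their direction was shared. Summed over the 37 genes, 7-day cpd held 16000 to 16200 CPM and the 7-day triple mutant 17800 to 18500 CPM, while 24-day cpd held 15800 to 17200 CPM and the 24-day triple mutant 13800 to 15600 CPM, and the genotypes did not overlap at either age. The count was 7 or 8 without 5 of the 6 libraries at 7 days, and 11 to 20 in the other single leave-outs.

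**Figure D4:**
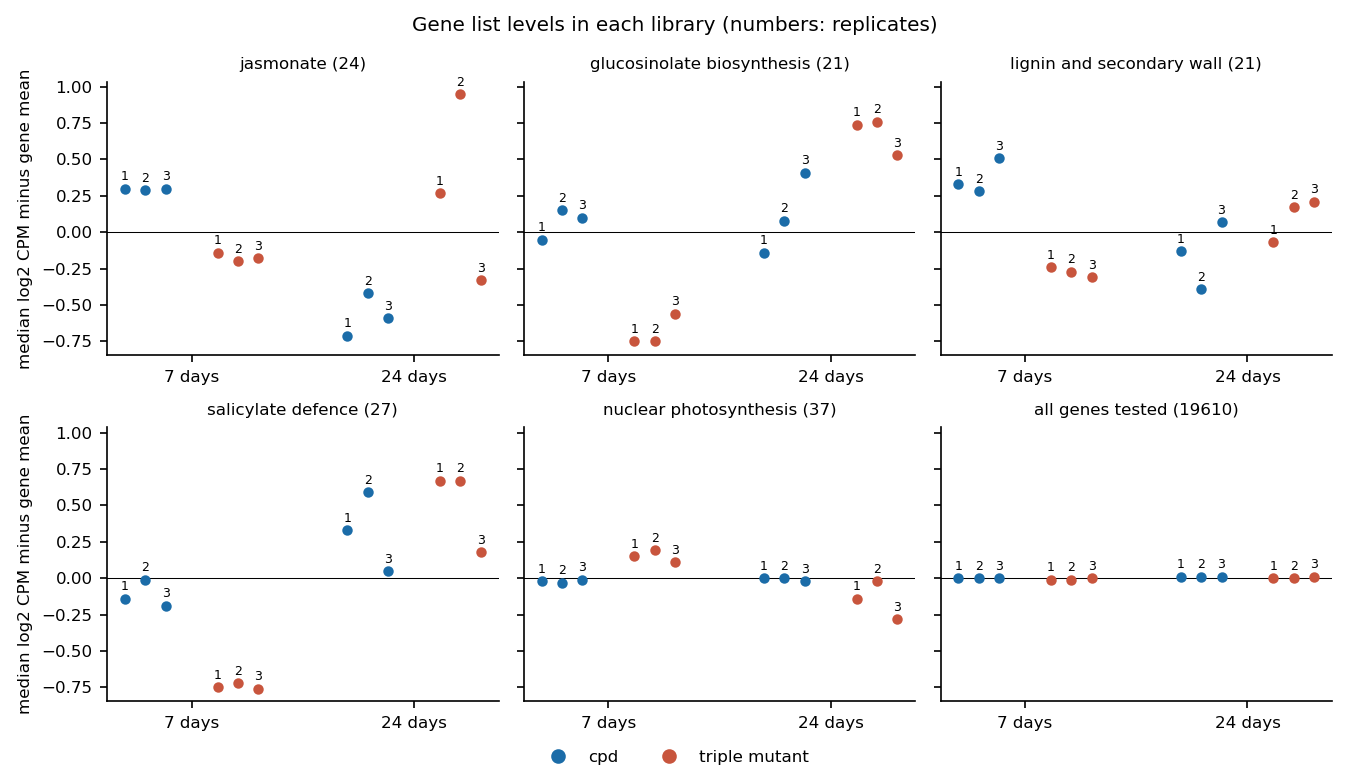
Median over the tested members of log2 CPM minus each gene's mean over the 12 libraries, for 5 gene lists and for all 19610 genes tested, one point a library, cpd in blue and the triple mutant in red, with replicate numbers. In the jasmonate panel the 24-day triple mutant libraries lie at 0.27, 0.95 and -0.33, and in the photosynthesis panel the triple mutant lies above cpd at 7 days and below or level with it at 24 days.

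Genes of the brassinosteroid pathway shifted in both directions. Of 13 tested biosynthesis genes, CYP90D1 shifted upward and CPD, SMT1, SMT2 and FK downward, with a median of 0.01. The downward share was 30.8%, against 4.16% of all genes tested, and it includes CPD, the gene mutated in the cpd plants. The upward share of 7.69% lay near the 5.85% of all genes tested. CYP90D1, a P450 enzyme of the pathway, was 38.6, 39.6 and 37.2 CPM in cpd and 32.1 to 32.5 CPM in the triple mutant at 7 days. By 24 days CYP90D1 was 33.2, 28.3 and 31.7 CPM in cpd and 39.9, 46.6 and 35.5 CPM in the triple mutant (interaction 0.64 ± 0.13, edgeR adjusted p = 0.0125). The sterol methyltransferase genes SMT1 and SMT2 and the sterol reductase gene FK lie upstream of the hormone branch and gave -0.34 ± 0.07, -0.41 ± 0.11 and -0.60 ± 0.16 (edgeR adjusted p = 0.0104, 0.0388 and 0.0338). DWF4, the P450 enzyme that acts before CPD, was 36.5 to 41.2 CPM in 7-day cpd and 39.6 to 44.9 CPM in the 7-day triple mutant, and 74.4, 50.7 and 60.9 CPM against 62.8, 75.1 and 73.7 CPM at 24 days, with overlap at both ages and an interaction of 0.07 ± 0.17 (edgeR adjusted p = 0.835). Of 6 inactivation genes BIA1, an acyltransferase, shifted upward (1.83 ± 0.45, edgeR adjusted p = 0.0253). The BIA1 call was lost without 5 of the 6 libraries at 7 days and without 24-day cpd replicate 1 or 2 (adjusted p up to 0.0703), and with replicate number as a block the list had 2 calls. The downward count of biosynthesis genes was 2 without 4 of the 6 libraries at 7 days or without 24-day triple mutant replicate 1, and the median was -0.16 without 24-day cpd replicate 3.

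Of 23 signalling genes BAK1 and BRL3 shifted upward and BKI1 and BEH1 downward, and BRL3 is itself mutated in the triple mutant. The shares were 8.7% each way, not far from the 5.85% upward and 4.16% downward of all genes tested. BAK1 was 209, 210 and 206 CPM in cpd and 179, 184 and 173 CPM in the triple mutant at 7 days. By 24 days BAK1 was 125, 124 and 127 CPM in cpd and 148, 145 and 139 CPM in the triple mutant, with tight groups apart at both ages in opposite order (interaction 0.42 ± 0.07, edgeR adjusted p = 0.00356). BKI1, an inhibitor that holds BRI1 inactive, was 13.9 to 15 CPM in cpd and 17.5 to 19.2 CPM in the triple mutant at 7 days. By 24 days BKI1 was 42.9, 41.4 and 44.6 CPM in cpd and 31.1, 24.6 and 36.5 CPM in the triple mutant (interaction -0.83 ± 0.17, edgeR adjusted p = 0.0118). BEH1, a relative of BZR1, gave -0.60 ± 0.15 (edgeR adjusted p = 0.0281). The kinase gene BIN2 (-0.08) and the transcription factor genes BZR1 (-0.17) and BES1 (0.18) did not pass the test. The pathway's median was 0.04, and -0.11 without 24-day triple mutant replicate 3.

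Growth-related lists tended downward in the few members called. The downward shares were 25% (growth bHLH), 23.5% (gibberellin), 14.3% (auxin response) and 13.3% (SAUR), against 4.16% of all genes tested. Of 16 growth bHLH factors, which relay hormone and shade signals to cell elongation, PAR1, PAR2, HFR1 and IBH1 shifted downward and none upward (median -0.28). These 4 are known as inhibitors of elongation rather than promoters, and the promoters PIF4 (-0.12), PIF5 (-0.22), HBI1 (-0.14) and BEE1 (0.45) did not pass the test. PAR1 was 15.9, 18.1 and 18.0 CPM in cpd and 19.0 to 20.4 CPM in the triple mutant at 7 days. By 24 days PAR1 was 26.1, 25.7 and 26.6 CPM in cpd and 17.2 to 19.4 CPM in the triple mutant (interaction -0.73 ± 0.11, edgeR adjusted p = 0.00198). Of 17 gibberellin genes GA20OX2, GASA1 and the growth repressors GAI and RGA1 shifted downward, and of 21 auxin response genes HAT2, IAA4 and IAA29 did, with none upward in either list. Of 15 SAUR genes SAUR67 and SAUR76 shifted downward at low levels, below 10 CPM in every library. Both calls were lost without 7-day cpd replicate 1 or 2 or 7-day triple mutant replicate 1 or 2, and SAUR67 also in DESeq2 (adjusted p = 0.0543). Among 23 expansins and xyloglucan enzymes, which loosen cell walls, XTH4 (-0.85 ± 0.11, edgeR adjusted p = 0.000814) and XTH15 shifted downward and XTH23 upward. The downward share was 8.7%, and the upward share of 4.35% was below the 5.85% of all genes tested. Without any single 7-day library the XTH15 and XTH23 calls were lost (adjusted p up to 0.0704 and 0.0742), and without 24-day triple mutant replicate 3 the upward count was 4. Counts of 2 to 4 such genes fell to 1 or 2 without single 7-day libraries in the bHLH, gibberellin and auxin lists and were 7 and 5 in the bHLH and auxin lists without 24-day triple mutant replicate 3; the IAA29 and SAUR76 calls were lost with replicate number as a block. Of 18 aquaporins 3 shifted downward (16.7%) and GAMMA-TIP upward (5.56%, near the 5.85% of all genes tested). Of 32 arabinogalactan protein genes 4 shifted each way (12.5% each), from AGP1 (2.03 ± 0.36, edgeR adjusted p = 0.00659) to AGP7 (-1.04 ± 0.24, edgeR adjusted p = 0.0203). The GAMMA-TIP call was lost without any single 7-day library, without 24-day cpd replicate 1 or 2, with upper quartile scaling and in a fit of all 24 libraries (adjusted p up to 0.139). Without 24-day triple mutant replicate 3 the downward aquaporins were 6, as they were with replicate number as a block, and the upward arabinogalactan protein genes 9. Without single 7-day libraries the former fell to as few as 1 and the downward arabinogalactan protein genes to 2.

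The ethylene list had upward calls and no downward one. Of 17 ethylene genes 5 shifted upward: the synthesis genes ACS2, ACS6, ACS7 and ACS8 and the feedback gene EBF1. ACS8 was 152 to 154 CPM in cpd and 83.5 to 84.6 CPM in the triple mutant at 7 days. By 24 days ACS8 was 28.8, 26.7 and 29.6 CPM in cpd and 35.9, 29.6 and 39.0 CPM in the triple mutant (interaction 1.16 ± 0.12, edgeR adjusted p = 0.000251). Of 33 genes of oxidative stress and detoxification 8 shifted upward, among them the ascorbate peroxidase gene APX1 (0.89 ± 0.14, edgeR adjusted p = 0.00296) and 5 glutathione transferase genes, and UGT73B1 shifted downward, a call lost without any single 7-day library. The upward count was 3 to 5 without any single 7-day library or without 24-day cpd replicate 2, and 13 without 24-day triple mutant replicate 3. Of 15 cytokinin genes ARR4, CKX4 and CRF5 shifted upward, a count of 0 without 7-day triple mutant replicate 3, 9 without 24-day triple mutant replicate 3 and 5 with replicate number as a block, under which the ARR4 call was lost. The abscisic acid list had a median of 0.02 and a share called upward of 7.41%, near the 5.85% of all genes tested. Of its 27 genes HAI1 and CYP707A1 shifted upward. Both calls were lost without any single 7-day library (adjusted p up to 0.0796 and 0.104), and HAI1 also with a spread for each gene and age (adjusted p = 0.0581).

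Of the nutrient lists, nitrate had the highest share of calls. Of 18 nitrate genes 6 shifted upward, with a median of 0.58. NIA2, a nitrate reductase, was 2872, 2971 and 2973 CPM in cpd and 2618, 2736 and 2614 CPM in the triple mutant at 7 days. By 24 days NIA2 was 558, 537 and 482 CPM in cpd and 880, 838 and 662 CPM in the triple mutant (interaction 0.74 ± 0.13, edgeR adjusted p = 0.00679). The others were the transporter gene NRT1.1, the nitrite reductase gene NIR1, UPM1 and the glutamine synthetase genes GLN1;1 and GLN1;4, and the count was 2 or 3 without 4 of the 6 libraries at 7 days. Of 12 sulfate assimilation genes APR1, APR2 and SULTR2;1 shifted upward; the count was 6 with replicate number as a block or without 24-day triple mutant replicate 3, and 1 without 7-day cpd replicate 1. Of 14 iron genes F6'H1, an enzyme of coumarin synthesis, shifted upward (2.30 ± 0.47, edgeR adjusted p = 0.012) and the ferritin gene FER4 downward, and of 13 phosphate genes PHF1 shifted upward. The shares called upward in these 2 lists, 7.14% and 7.69%, lay near the 5.85% of all genes tested. FER4 and PHF1 each lost the call without 4 of the 6 libraries at 7 days, and the upward iron count was 2 with replicate number as a block and 3 without 24-day triple mutant replicate 3.

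The heat and unfolded protein list had the highest median interaction, 1.62, and few calls: 3 of 21, the luminal chaperone genes BIP1, BIP2 and BIP3. BIP3 was 32.9 to 34.0 CPM in cpd and 13.6 to 16.6 CPM in the triple mutant at 7 days. By 24 days BIP3 was 7.54, 6.56 and 9.10 CPM in cpd and 8.59, 10.9 and 9.28 CPM in the triple mutant (interaction 1.42 ± 0.18, edgeR adjusted p = 0.000814). The heat shock genes set the median. HSP90.1 was 272, 389 and 285 CPM in 24-day cpd and 734, 2254 and 239 CPM in the 24-day triple mutant, so replicate 2 was high and replicate 3 below cpd, and its interaction of 1.89 ± 0.75 did not pass the test (edgeR adjusted p = 0.131). Without triple mutant replicate 3 the list had 18 calls, and without replicate 2 its median was 0.49. It had 5 calls with replicate number as a block and 1 without any single 7-day library or without 24-day cpd replicate 1 or 2. The cold list had 3 calls of 14, CBF1, CBF2 and the zinc finger gene ZAT10, with a median of 0.23 that was -0.52 without triple mutant replicate 2. The CBF1 call was lost without any single 7-day library, and without 24-day triple mutant replicate 3 the list had 5 calls. ZAT10 was 360, 365 and 359 CPM in cpd and 232, 247 and 230 CPM in the triple mutant at 7 days. By 24 days ZAT10 was 173, 188 and 150 CPM in cpd and 553, 693 and 380 CPM in the triple mutant (interaction 2.28 ± 0.23, edgeR adjusted p = 0.000236).

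**Figure D5:**
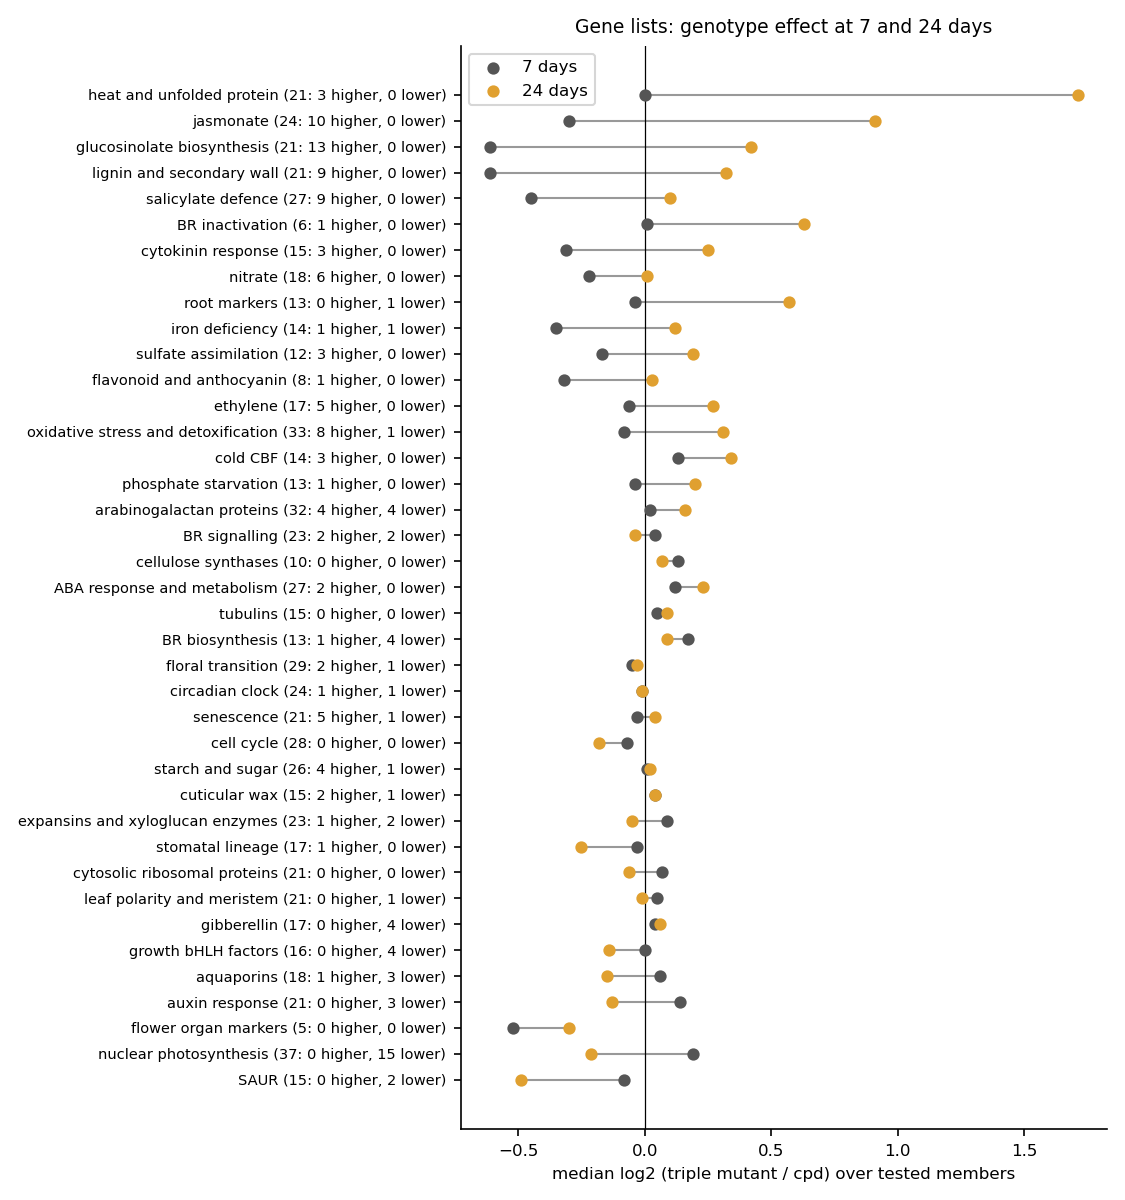
Median log2 ratio of triple mutant to cpd over the tested members of each gene list at 7 days (grey) and 24 days (orange), ordered by the median interaction; the brackets give the number of members tested and called in each direction. Jasmonate, glucosinolate, lignin and salicylate genes go from negative at 7 days to positive at 24 days, and nuclear photosynthesis genes from 0.19 to -0.21.

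Lists of basic cell functions held no calls: none of 28 cell cycle genes, 10 cellulose synthase genes, 21 cytosolic ribosomal protein genes or 15 tubulin genes passed the test in edgeR, and with a weight per age in limma voom 1 ribosomal protein gene did. Without 24-day triple mutant replicate 3, 1 cell cycle, 2 ribosomal protein and 1 tubulin gene passed. At an unadjusted p below 0.05, 4 cell cycle, 1 cellulose synthase, 4 ribosomal protein and 2 tubulin genes were past the threshold, where 2642 of all genes tested were higher and 2703 lower. Of 29 genes of the floral transition MAF5 and SPL15 shifted upward and SOC1 downward, and of 24 clock genes RVE8 upward and PRR3 downward, with medians of 0.01 and -0.01. The shares called were 6.9% upward and 3.45% downward in the floral list and 4.17% each way in the clock list. They lay near the 5.85% and 4.16% of all genes tested. The SOC1 call was lost with replicate number as a block, with RLE scaling and without any single 7-day library, and the PRR3 call without 4 of the 6. Upward counts without 24-day triple mutant replicate 3 were 5 in the floral list and 4 in the clock list, where the block gave 2. Of 21 senescence genes 5 shifted upward, WRKY6 (0.74 ± 0.11, edgeR adjusted p = 0.00175) among them, and the pheophytinase gene PPH downward, with a median of -0.04 and an upward count of 1 to 3 without any single 7-day library. Of 26 genes of starch and sugar metabolism 4 shifted upward, among them the sucrose carrier gene SUC1 (0.61 ± 0.07, edgeR adjusted p = 0.000422), and ISA3 downward. The downward shares of the senescence and sugar lists, 4.76% and 3.85%, lay near the 4.16% of all genes tested. The downward count of the senescence list was 0 without 5 and that of the sugar list 0 without 4 of the libraries at 7 days, while the block gave 2 and 3 and the fit without 24-day triple mutant replicate 3 gave 3 and 4. Of 15 wax genes KCS1 and MYB96 shifted upward and LTP2 downward, and of 8 flavonoid genes CHS upward. CHS and SPL15 were low, at 0.0516 to 1.06 and 0.167 to 0.879 CPM, so their calls rest on few counts. The flavonoid count was 0 in a leave-out of a 24-day library. Of 17 stomatal genes MYB88 shifted upward. Of 21 genes of leaf polarity and meristems CLV1 shifted downward, a count of 3 without 24-day cpd replicate 3. The stomatal share upward, 5.88%, and the polarity and meristem share downward, 4.76%, lay near those of all genes tested. LTP2 lost the call without 5 and MYB88 without 4 of the libraries at 7 days, and the downward wax count was 2 with the block and 3 without 24-day triple mutant replicate 3. Of 13 root markers WOX5 shifted downward, a call lost without 5 of the 6 libraries at 7 days, and the list's median of 0.46 was 1.36 without 24-day cpd replicate 3, the cpd library with the highest root marker sum. None of 5 flower organ genes or 3 seed genes tested was called in edgeR (0 and 1 at an unadjusted p below 0.05) or in limma voom, and no pollen gene had enough counts to test. Summed over the lists, 102 member entries shifted upward and 52 downward. A gene in several lists counts in each, so these are not numbers of distinct genes.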

How the data were processed

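Illumina TruSeq libraries of the 12 untreated samples were analysed from the gene-level read counts that the authors deposited for 24 libraries; 0 library columns were left out. Per the submitters' processing notes the tools were Trimmomatic 0.36, HISAT2 2.1.0 and HTSeq 0.9.1, with the TAIR10 build; parameters and the strand setting are unknown here, so overlapping and antisense genes cannot be separated. Of 32678 loci 31912 were matched to the TAIR10.1 reference, 10616 with a symbol, which names genes and chromosomes; coordinates and sequences are not given because the builds differ.

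Counts were fitted with edgeR 4.0.16 in R 4.3.3: filterByExpr (minimum count 10; 19610 genes tested, 13068 not), TMM factors, a mean for each of 4 groups, quasi-likelihood tests, Benjamini-Hochberg over all genes tested, threshold 0.05. Each age was also fitted alone. CPM are normalised by TMM. The fits were tested on simulated data with a spread for each age, in which voom made a larger share of false calls than edgeR or the fit with a spread for each gene and age. Alternatives were DESeq2 1.42.0, limma voom 3.58.1 with a weight per age, other scalings, filters and spreads, the replicate block, and leaving out each library. Samples were grouped by the labels. Same-numbered libraries of the 2 genotypes had correlated deviations at 24 days (0.13, 0.26 and 0.38 for numbers 1 to 3) and not at 7 days (-0.0054 to 0.0088). By the rule that every such pair exceeds 0.1 the numbers were taken to pair the libraries at 24 days, although cpd 2 and triple mutant 1 correlated at 0.28. In the interaction fit the block nevertheless paired the libraries by number at both ages. The labels do not say what a number marks.

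Named genes are CPD, BRI1, BRL1, BRL3 and ABI4, the 12 highest and 12 lowest interactions past both edgeR and voom with a symbol, a mean of at least 5 CPM in a group and no overlap of genotypes at one age or more, and up to 3 called members of each list by adjusted p; further called members are named to account for a count. The members and the 41 lists (964 entries, 885 matched to a locus, 7 left out because the symbol belonged to another gene) were compiled from general knowledge with earlier results of these data known.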

Additional observations from a re-analysis of the deposited data

Results flagged for a closer look

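The genotype difference itself differed between the 2 ages by the interaction test of edgeR for 1147 genes upward and 816 downward. Among the named genes with an upward interaction the log2 values were 4.43 for CBF2, 3.97 for MAF5, 3.41 for PP2-B14, 3.38 for JAL23, 3.21 for DIC2, 2.96 for ERF11, 2.89 for NUDT4, 2.65 for PEPR2, 2.63 for BCS1, 2.62 for NUDT21, 2.59 for RAS1 and 2.48 for MYB15. Among those with a downward interaction they were -4.1 for HEI10, -2.81 for GRP9, -1.86 for DCF, -1.84 for CCD8, -1.48 for GA20OX2, -1.45 for MLP328, -1.43 for OEP16-1, -1.37 for MLP329, -1.33 for NIT2, -1.33 for MES12, -1.28 for BBX17 and -1.27 for MLP34. These genes were selected for the size of the difference, so the values are those of a chosen extreme. No group had more than 3 libraries, so single libraries were not examined by a test for outliers.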

How the results depend on the processing

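No named gene changed the sign of its interaction in any setting run. The medians of 14 of the 40 gene lists with tested members, each within 0.23 of 0, did so in at least 1 setting, and 17 of the 46 list counts above 0 fell to 0 without 1 library or another. All of the 1963 interaction calls kept their sign in every setting that tested them, and 1684 stayed called with replicate number as a block (1406 upward, 855 downward) and 1754 with a spread for each gene and age (1117 and 834). Other scalings, filters, tools and spreads gave 1040 to 1403 upward and 663 to 1244 downward calls; the 1244 came from a fit of all 24 libraries. Leaving out 1 library gave 621 to 1953 upward and 321 to 1513 downward calls, and for the list members 65 to 182 and 24 to 78. At 7 days alone DESeq2 called 1261 higher and 1727 lower, and single leave-outs 1952 to 2224 and 2301 to 2505. At 24 days alone DESeq2 called 546 and 145 and the replicate block 156 and 11, and single leave-outs gave 4 to 360 and 1 to 53, the highest without triple mutant replicate 3. Of the gene-level results under alternatives 247 lost the call and 2353 did not. The causes were not tested. The spread for each gene and age, and the block and single leave-outs for the lists, were chosen after seeing the data. With 3 libraries a group and an unequal spread at the 2 ages, a gene that missed the test may still differ; genes under about 1 CPM rest on a few counts. With the block 279 of the 1963 calls were lost, the list members called went from 102 to 131 upward and from 52 to 67 downward, and 13 of the 46 list counts moved by over 1.5 times.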

Other observations

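The BL-treated libraries hold the same 4 groups and share no library with the comparison above. Of the 1147 genes with an upward interaction without BL, 72.3% were also positive with BL and 204 were called so, while 25 were called in the opposite direction. Of the 816 with a downward interaction 77.3% were also negative and 127 called so, with 12 called in the opposite direction, against the same sign in 58.4% of all genes tested. MAF5 gave 3.1 with BL (edgeR adjusted p = 0.00168), GRP9 -2.86 and FRK1 1.35 (edgeR adjusted p = 0.000183). CBF2 gave 1.32 with BL and did not pass the test (edgeR adjusted p = 0.298). Of the other 12 highest, PP2-B14 (0.56), DIC2 (0.365), ERF11 (0.718), PEPR2 (0.563), BCS1 (0.537) and RAS1 (0.578) did not pass either. JAL23, NUDT4, NUDT21 and MYB15 passed, at 1.00 to 1.75. Of the 12 lowest, DCF, OEP16-1, MES12 and BBX17 did not pass, nor did GA20OX2, which had the opposite sign (1.02). CYP90D1 was called in the opposite direction (-0.613, edgeR adjusted p = 0.0412). In 24-day cpd with BL, replicate 3 of NUDT21 stood at 73.4 CPM against 33.5 and 43.6 CPM.

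The following loci were chosen after their values were seen. AT3G28153, annotated as a pseudogene on chromosome 3, had 306, 300 and 310 CPM in the 7-day triple mutant and 1.29 to 3.15 CPM in the other 9 untreated libraries (interaction -8.46 ± 0.18, edgeR adjusted p = 1.39e-10). With BL it had 334, 331 and 331 CPM in the 7-day triple mutant and at most 2.81 CPM elsewhere. Its neighbours in the annotation, TBL22, AT3G28155 and AT3G28140, stayed below 18 CPM in every library, with interactions of -0.38, 0.17 and -0.17 that did not pass the test.

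AT2G25250, annotated as a serine/arginine repetitive matrix-like protein on chromosome 2, was 51.8, 52.8 and 56.9 CPM in 7-day cpd, 33.1, 34.8 and 33.3 CPM in the 7-day triple mutant, 35.6, 33.0 and 33.0 CPM in 24-day cpd and 102, 91.6 and 97.0 CPM in the 24-day triple mutant. Its interaction was 2.19 ± 0.09 (edgeR adjusted p = 1.30e-07). AT2G27080, of the hydroxyproline-rich LEA family, had 44.2 to 71.1 CPM in the other 9 libraries and 236, 277 and 208 CPM in the 24-day triple mutant (2.6 ± 0.14, edgeR adjusted p = 2.38e-06). AT5G25260, a membrane protein with a Band 7 domain, was 75.2 to 80.6 CPM in 7-day cpd and 14.4 to 15.3 CPM in the 7-day triple mutant, and 21.7 to 29.5 CPM against 29.0 to 33.4 CPM at 24 days, where the ranges overlapped (2.62 ± 0.14, edgeR adjusted p = 2.38e-06).

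The genes MAF2, MAF3, MAF4 and MAF5 lie together on chromosome 5. MAF4 was 7.32 to 8.97 CPM in 7-day cpd, 2.77 to 3.00 CPM in the 7-day triple mutant, 0.957 to 1.76 CPM in 24-day cpd and 0.649 to 1.51 CPM in the 24-day triple mutant, with an interaction of 1.11 ± 0.39 that did not pass the test (edgeR adjusted p = 0.091). MAF2 (0.01) and MAF3 (-0.19) had overlapping ranges of the genotypes at each age.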
